A study of Mus musculus with 6 samples.

Results

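The 10 genes described here encode the 5 subunits of the transcription factor NF-κB (*Nfkb1*, *Nfkb2*, *Rel*, *Rela* and *Relb*) and 5 proteins of the IκB family (*Nfkbia*, *Nfkbib*, *Nfkbie*, *Nfkbiz* and *Nfkbid*). They were chosen by gene name, not by their values, from a table of 55421 genes measured by RNA-seq in activated mouse splenic B cells. All 10 were among the 17640 genes tested, those whose mean over the 6 libraries reached 10 normalized counts. A normalized count is the number of reads on a gene divided by a size factor for the library, and it is the unit of every level below unless a level per kb is named.

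The study asked how gene expression in activated B cells depends on hnRNPL, an RNA-binding protein that takes part in splicing and other steps of RNA processing. The 3 WT libraries came from CD21-cre mice and the 3 hnRNPL-deficient libraries from hnRNPL F/F CD21-cre mice, in which loxP-flanked *Hnrnpl* is excised. Both groups therefore carried the Cre transgene, and per the study's methods both also carried the Rosa mT/mG reporter, in which excision by Cre switches a cell from membrane tdTomato to membrane GFP. B cells were taken from the spleen, cultured with LPS (5 µg/ml) and IL-4 (5 ng/ml) for 24 h, and the GFP+ cells were sorted before RNA extraction. The mice were C57BL6/J, of either sex and older than 6 weeks by the study's general statement, and the labels give neither for a single mouse. The Cre of this line is active chiefly in mature B cells, with some activity outside the B lineage, so the deficient B cells came from animals that may have lost hnRNPL elsewhere. No unstimulated cells were part of the comparison, so every level below is a level at 24 h and not an induction.

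In resting B cells NF-κB dimers are held in the cytoplasm by the classical inhibitors IκBα (*Nfkbia*), IκBβ (*Nfkbib*) and IκBε (*Nfkbie*), which mask the nuclear localization signals of the subunits. LPS acts through Toll-like receptor signalling to switch on the IκB kinase complex, which marks these inhibitors for degradation, and the freed dimers enter the nucleus and activate genes with κB sites, including the genes of several of the inhibitors. The atypical family members IκBζ (*Nfkbiz*), IκBNS (*Nfkbid*) and BCL3 work in the nucleus, where they modulate NF-κB at selected promoters. c-Rel, encoded by *Rel*, is abundant in lymphocytes, in which it is needed for B cell growth and survival after activation.

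Of the 10 genes, 1 was called higher and 2 were called lower in hnRNPL-deficient cells, where a call needed an adjusted p under 0.1 and a difference of at least 1.5-fold. *Nfkbiz* rose (log2 fold change 0.64), and *Nfkbie* and *Nfkbid* fell (-0.65 and -0.64). *Nfkbia* and *Nfkbib* also passed the adjusted p at smaller differences (-0.44 and -0.49), so that all 5 IκB genes passed at any fold, 4 of them downward. Among the 5 subunit genes *Rela* passed at the edge of the threshold (-0.51) and none was called. Over all tested genes 7.28% were called higher and 4.08% lower, and at any fold 10.0% passed upward and 7.97% downward. The deficient and WT values did not overlap for 5 of the 10 genes downward and 1 upward, against 16.3% and 17.7% of all tested genes.

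The IκB genes that fell are shown first with the DNA just upstream of their transcription start sites, because several genes of this family are themselves classical NF-κB targets. The sequences are the 250 bases before a RefSeq start site (build GRCm38.p6), 5′ to 3′ on the strand of the gene, with capitals marking matches on either strand to the standard κB consensus. They lie at chr12:55492648-55492897 (minus strand, *Nfkbia*), chr17:45555450-45555699 (plus strand, *Nfkbie*), chr7:30422156-30422405 (plus strand, the second of 3 listed starts of *Nfkbid*) and chr7:28766645-28766894 (minus strand, *Nfkbib*).
Nfkbia: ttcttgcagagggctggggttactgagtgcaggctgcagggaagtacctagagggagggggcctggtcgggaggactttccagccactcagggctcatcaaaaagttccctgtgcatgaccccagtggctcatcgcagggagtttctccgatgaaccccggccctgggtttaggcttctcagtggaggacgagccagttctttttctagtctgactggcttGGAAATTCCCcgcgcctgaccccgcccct
Nfkbie: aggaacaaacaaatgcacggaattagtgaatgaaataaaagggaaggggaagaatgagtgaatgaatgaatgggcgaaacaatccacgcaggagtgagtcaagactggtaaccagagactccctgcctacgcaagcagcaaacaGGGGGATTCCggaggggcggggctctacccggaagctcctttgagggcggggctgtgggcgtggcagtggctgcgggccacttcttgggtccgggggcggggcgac
Nfkbid: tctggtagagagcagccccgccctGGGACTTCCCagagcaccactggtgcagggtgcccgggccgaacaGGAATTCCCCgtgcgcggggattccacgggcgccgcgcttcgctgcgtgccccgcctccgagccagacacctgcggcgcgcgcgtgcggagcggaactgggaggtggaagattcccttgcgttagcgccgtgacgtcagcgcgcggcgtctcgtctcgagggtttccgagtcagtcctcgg
Nfkbib: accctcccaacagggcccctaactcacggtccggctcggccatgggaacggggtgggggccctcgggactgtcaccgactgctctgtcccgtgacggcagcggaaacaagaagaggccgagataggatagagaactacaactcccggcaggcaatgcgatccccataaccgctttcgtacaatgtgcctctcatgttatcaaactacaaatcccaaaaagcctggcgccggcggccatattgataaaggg

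The *Nfkbia* sequence held 1 match, GGAAATTCCC, 29 bases upstream of the start. In *Nfkbie* the match was GGGGGATTCC, 106 bases upstream, and in the *Nfkbid* sequence shown there were 2, GGGACTTCCC and GGAATTCCCC. The windows at the other listed starts of *Nfkbid* held no match. No stretch of the *Nfkbib* sequence matched the consensus, and none matched in *Rela*. In the windows that reach 50 bases past the start, *Nfkb2* held GGGAATTCCCC and GGGGCTTTCC at its first listed start, *Rel* held GGGAAATCCCC, and *Bcl3*, a further IκB family gene outside the 10, held GGGAAGTCCC. In all, 7 of the 10 genes had promoter sequence in the RefSeq table (*Nfkb1*, *Relb* and *Nfkbiz* are named only), and 5 of these 7 held a match in at least 1 of their windows, as did 9.55% of the 27025 genes listed there. By window the match was in 7 of 11, with the same letters shared by overlapping windows of *Nfkb2*, against 8.46% of all 32851 windows, and 50.8% held the looser motif GGGNNNNNCC on either strand. *Nfkbia*, *Nfkbie* and *Nfkbid* held a match and passed the adjusted p downward, while *Nfkb2*, *Rel* and *Bcl3* also held matches and did not pass. *Nfkbib* and *Rela* passed downward without a match. A match describes the letters of the window and not binding of NF-κB, and its relation to the differences was not tested.

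**Figure D1:**
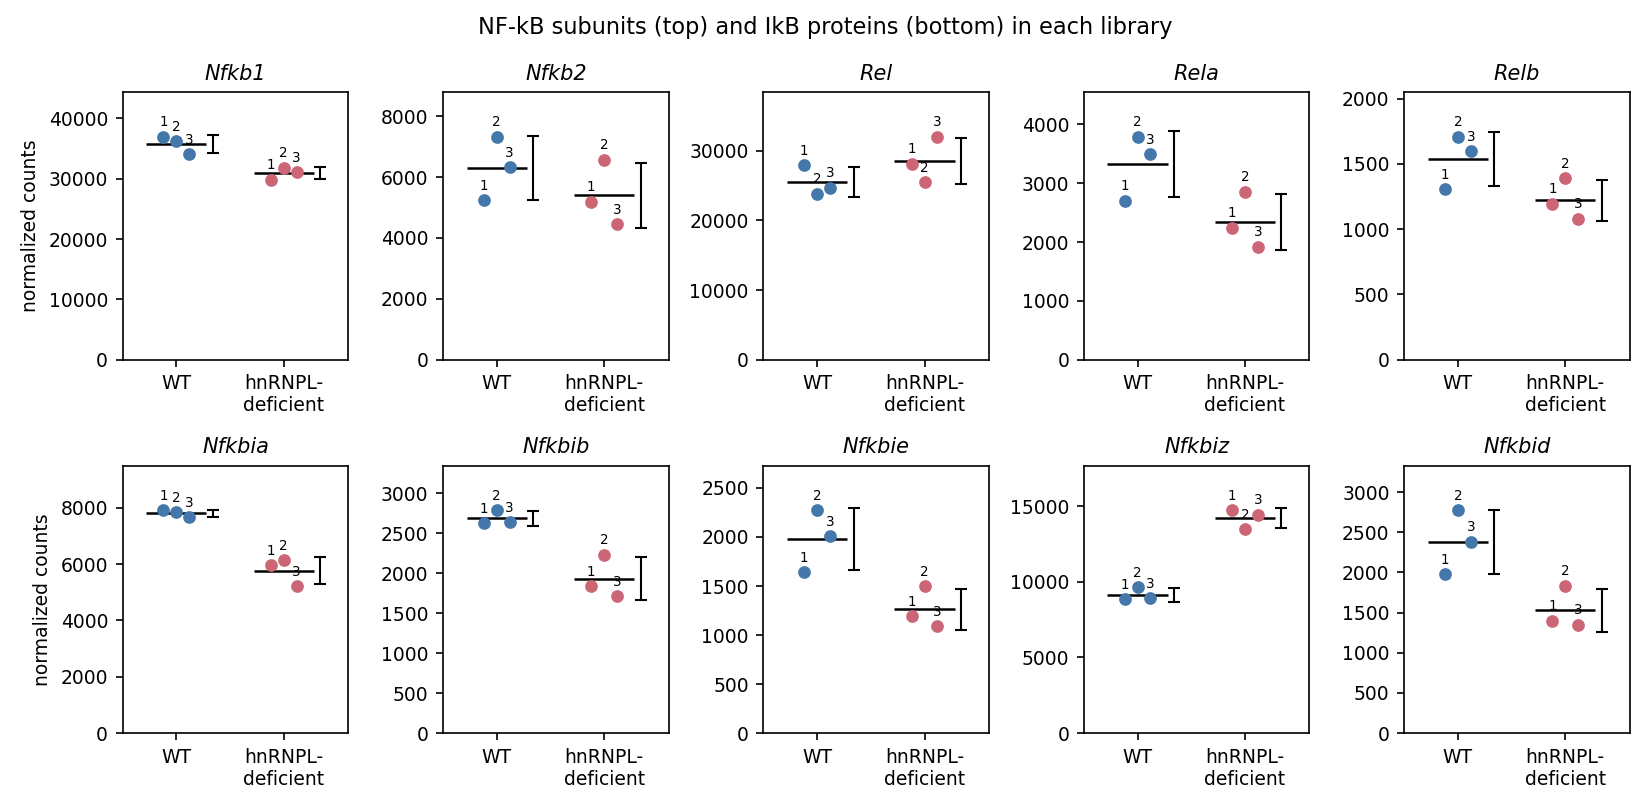
Normalized counts (y axis, from 0) of the 5 NF-κB subunit genes (top) and the 5 IκB genes (bottom) in each WT (blue) and hnRNPL-deficient (red) library; numbers give the replicate, horizontal lines the group mean and bars at the side the mean ± SD (n = 3). *Nfkbiz* is higher in all 3 deficient libraries, *Nfkbia*, *Nfkbib*, *Nfkbie*, *Nfkbid* and *Nfkb1* are lower in all 3, and the other 4 genes overlap.

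The subunits are described first. *Nfkb1* encodes p105, which is processed to p50, the usual partner of RelA and c-Rel. In WT libraries it had 36993, 36209 and 34082 normalized counts, and in deficient libraries it had 29841, 31838 and 31055. All deficient values lay below all WT values, yet the difference was small (log2 fold change -0.21, SE 0.0919, adjusted p = 0.182 from limma) and did not pass. *Nfkb1* (chr3:135584655-135691547) contains the unclassified gene *Gm43430* on the same strand, and reads where both are annotated could not be given to 1 of them with certainty.

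*Rel* gave 27959, 23821 and 24723 normalized counts in WT and 28166, 25473 and 32048 in deficient cells. It was the only one of the 10 besides *Nfkbiz* with a higher mean in deficient cells, but the groups overlapped, with deficient replicate 2 below WT replicate 1. The log2 fold change was 0.16 (95% interval -0.11 to 0.43, adjusted p = 0.417). *Rela* encodes RelA (p65), the transactivating subunit of the p50-p65 dimer. Its values were 2702, 3794 and 3492 in WT against 2243, 2855 and 1923 in deficient libraries, so that WT replicate 1 lay below deficient replicate 2. Its log2 fold change of -0.51 (SE 0.175, 95% interval -0.91 to -0.11) had an adjusted p of 0.0993, and an exact two-sided permutation test over the 6 libraries gave p = 0.2 where the smallest possible is 0.1, the value of each gene whose groups did not overlap.

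The result for *Rela* turned on single libraries. Without WT replicate 1 the difference was -0.66 (adjusted p = 0.0523) and without deficient replicate 2 it was -0.67 (adjusted p = 0.0548), both of them calls. With WT replicate 2, WT replicate 3, deficient replicate 1 or deficient replicate 3 left out it was -0.41, -0.47, -0.49 and -0.38, with adjusted p-values of 0.248, 0.246, 0.184 and 0.233. The count tests were run only on the 5 libraries other than deficient replicate 2. They called *Rela* lower, with -0.64 (adjusted p = 0.059, edgeR) and -0.66 (adjusted p = 0.00854, DESeq2). Since leaving out that library made *Rela* a call in limma too, these calls cannot be credited to the method.

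The subunits of the non-canonical branch, which is driven by receptors such as CD40 and BAFF-R, did not pass. *Nfkb2* encodes p100, the precursor of p52, and had 5241, 7329 and 6323 normalized counts in WT and 5187, 6564 and 4442 in deficient cells. These values overlapped over most of their range, and the log2 fold change was -0.23 (95% interval -0.61 to 0.16, adjusted p = 0.422). *Relb*, the usual partner of p52, had 1306, 1708 and 1595 in WT and 1194, 1388 and 1079 in deficient cells. Only WT replicate 1 and deficient replicate 2 crossed, and the log2 fold change was -0.33 (SE 0.145, adjusted p = 0.182).

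Among the IκB genes, the 3 classical inhibitors fell. *Nfkbia* encodes IκBα, the inhibitor that is degraded and resynthesized fastest after stimulation. Its level was 7912, 7843 and 7668 normalized counts in WT and 5949, 6138 and 5217. The WT mean was 7808 with an SD of 126, and every deficient value lay below every WT value. The level fell by 26.1% (log2 fold change -0.44, SE 0.0959, adjusted p = 0.0230), short of the 1.5-fold of a call. It passed the adjusted p in each of the 20 alternative analyses, at differences from -0.49 to -0.32.

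*Nfkbib* encodes IκBβ, whose degradation is slower and more lasting. It had 2630, 2791 and 2642 normalized counts in WT and 1842, 2232 and 1716 in deficient cells. Again the groups did not overlap, although deficient replicate 2 lay closer to WT than the other 2. The log2 fold change was -0.49 (SE 0.12, adjusted p = 0.0356), and it became a call at -0.60 without that library. The adjusted p rose to 0.12, 0.111 and 0.105 without WT replicate 2, WT replicate 3 and deficient replicate 1, at differences of -0.46, -0.50 and -0.46. *Nfkbib* (chr7:28758251-28767512) lies 0.041 Mb from *Hnrnpl*, the targeted gene, and overlaps *Sirt2* and *Ccer2* on the opposite strand.

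*Nfkbie*, which encodes IκBε, a late inhibitor that binds c-Rel and RelA dimers, showed the largest difference of the 10 on the log2 scale. Its values were 1643, 2274 and 2009 in WT and 1195, 1496 and 1092 in deficient cells. The highest deficient value was below the lowest WT value, by less than the SD within either group (317 in WT, 210.0 in deficient cells). The level fell by 36.2% (log2 fold change -0.65, SE 0.162, 95% interval -1.02 to -0.28, adjusted p = 0.0373). The call was lost without WT replicate 2 (-0.54, adjusted p = 0.124), WT replicate 3 (-0.63, adjusted p = 0.125) or deficient replicate 3 (-0.55, adjusted p = 0.0991, below 1.5-fold).

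The nuclear IκB genes moved in opposite directions. *Nfkbiz* encodes IκBζ, an inducible nuclear protein that acts as a coactivator at a subset of NF-κB targets, *Il6* among them. It had 8856, 9628 and 8899 normalized counts in WT and 14736, 13473 and 14441 in deficient cells. All 3 deficient libraries were above all 3 WT libraries, and the gap between the groups was several times the SD within either (434 in WT, 661 in deficient cells). The level was 1.56 times that of WT (log2 fold change 0.64, SE 0.0899, 95% interval 0.43 to 0.84, adjusted p = 0.00397). It was called higher in all 20 alternative analyses at the same thresholds, at 0.61 to 0.79, but not where a 2-fold difference was required.

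*Nfkbid* encodes IκBNS, which B cells need for normal antibody responses to some antigens and which is reported to act on NF-κB p50 complexes. It had 1980, 2776 and 2384 normalized counts in WT and 1401, 1834 and 1350.1 in deficient cells. The groups did not overlap, though deficient replicate 2 came close to WT replicate 1. The level fell by 35.8% (log2 fold change -0.64, SE 0.164, adjusted p = 0.0404). The call was lost without WT replicate 2 (-0.52, adjusted p = 0.130), WT replicate 3 (-0.63, adjusted p = 0.126), deficient replicate 1 (-0.58, adjusted p = 0.111) or deficient replicate 3 (-0.56, adjusted p = 0.109), and with libraries scaled to equal totals (-0.58, below 1.5-fold). *Nfkbid* (chr7:30421732-30428746) lies 1.599 Mb from *Hnrnpl*.

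*Bcl3*, the remaining nuclear family member, was outside the 10 and is given for comparison within the family. Like *Nfkbib* and *Nfkbid* it lies on chromosome 7 with *Hnrnpl*, 8.986 Mb away. It had 5003, 5555 and 5368 normalized counts in WT and 5310.1, 5952 and 3961 in deficient cells. Those values overlapped, with a log2 fold change of -0.08 (95% interval -0.42 to 0.25, adjusted p = 0.749).

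**Figure D2:**
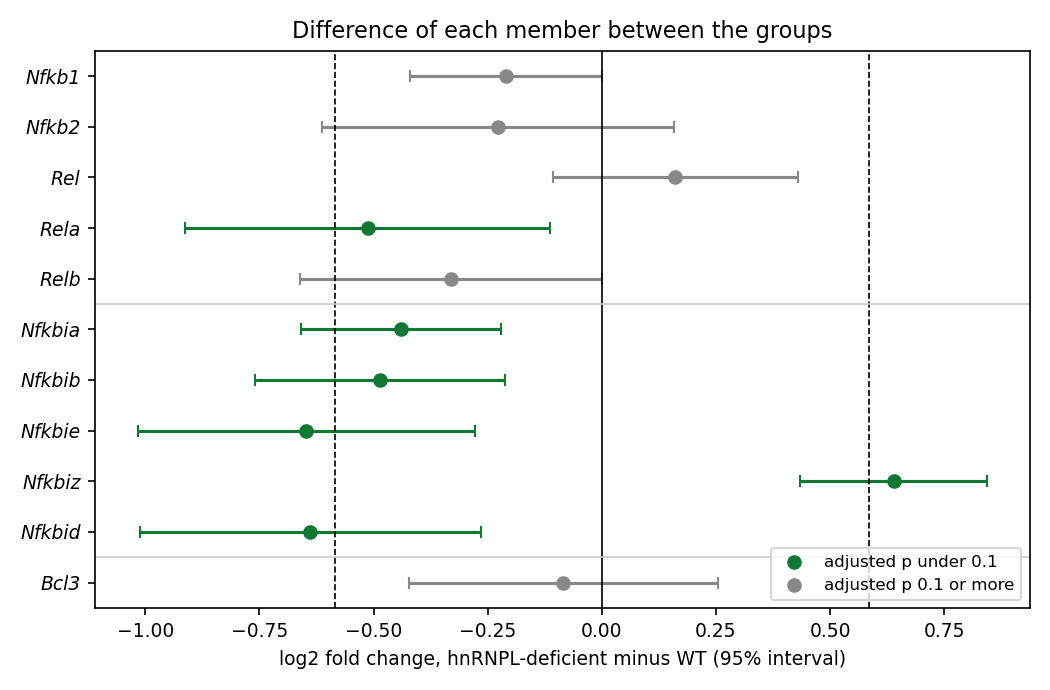
Log2 fold change of each gene, deficient minus WT (x axis), with its 95% interval from limma (n = 3 per group); green marks an adjusted p under 0.1, dashed lines mark 1.5-fold, and horizontal lines separate subunits, IκB genes and *Bcl3*. The intervals of *Nfkbiz*, *Nfkbia*, *Nfkbib*, *Nfkbie*, *Nfkbid* and *Rela* exclude 0, with *Nfkbiz* alone to the right, and those of *Nfkb1* and *Relb* end just below 0.

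The levels of the 10 genes were compared with one another only per kb of annotated exon, since longer transcripts give more reads. The length was the union of all annotated exons of a gene. For *Nfkb1* that union was 12061 bases over 10 transcripts, but its longest annotated transcript had 4149. Its level per kb, and its place in the order below, therefore depend on the length chosen. For *Rel* (7466 and 7466) and *Nfkbia* (1610 and 1578) the 2 lengths were close. In WT cells *Nfkbia* stood highest, at 4850 ± 78.2 normalized counts per kb (SD, n = 3), followed by *Rel* at 3416 ± 291 and *Nfkb1* at 2965 ± 125. *Nfkbiz* came next at 1819 ± 86.4. The ranges of these 4 over the libraries did not overlap those of their neighbours in the order. Below them *Nfkb2* (1374 ± 228), *Nfkbib* (1239 ± 41.4), *Rela* (1084 ± 184) and *Nfkbid* (1015 ± 170) overlapped from one to the next and had no clear order. *Nfkbie* (649 ± 104) and *Relb* (396 ± 53.5) were lowest and separate.

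In deficient cells the top of this order was different. *Rel* (3826 ± 443 normalized counts per kb) and *Nfkbia* (3583 ± 302) overlapped. On union exon lengths *Nfkbiz* (2833 ± 132) lay above *Nfkb1* (2563 ± 83.4) in all 3 libraries, the reverse of WT. Because the union length of *Nfkb1* far exceeds its longest transcript, this crossing depends on the length chosen. At the lower end *Nfkb2* (1177 ± 235) overlapped *Nfkbib* (890 ± 124), and *Nfkbib*, *Rela* (762 ± 154) and *Nfkbid* (651 ± 113) again overlapped from one to the next. *Nfkbie* (414 ± 69) remained above *Relb* (314 ± 40.3), by a narrow margin between their extreme libraries.

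The make-up of each pool follows from these levels. Of the summed per-kb level of the 5 IκB genes, *Nfkbiz* made up 19.0, 19.2 and 18.8% in WT and 34.7, 30.5 and 36.7% in deficient cells. *Nfkbia* made up 53.0, 48.7 and 50.5% in WT and 43.6, 43.3 and 41.3% in deficient cells. Neither gene's shares overlapped between the groups, and since shares sum to 100% a rise in *Nfkbiz* alone lowers the others. A ratio of 2 genes within a library does not depend on how libraries are scaled. The ratio of *Nfkbiz* counts to *Nfkbia* counts, which also holds their unequal lengths, was 1.12, 1.23 and 1.16 in WT and 2.48, 2.20 and 2.77 in deficient libraries, again with no overlap.

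The subunit pool differed less. Its shares depend on the length used for *Nfkb1*, since a shorter length would raise the share of *Nfkb1* and lower the others. *Rel* made up 40.8, 33.7 and 36.5% of the summed per-kb level in WT and 44.8, 38.9 and 49.1% in deficient cells, which overlapped. *Rela* made up 9.59, 13.0 and 12.5% in WT and 8.68, 10.6 and 7.16% in deficient cells, also with overlap. The ratio of *Rel* counts to *Rela* counts was 10.3, 6.28 and 7.08 in WT and 12.6, 8.92 and 16.7 in deficient libraries, with deficient replicate 2 below WT replicate 1. The ratio of *Rela* counts to those of *Nfkbia*, a subunit against its main inhibitor, was 0.341, 0.484 and 0.455 in WT and 0.377, 0.465 and 0.369 in deficient libraries, ranges that overlap.

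**Figure D3:**
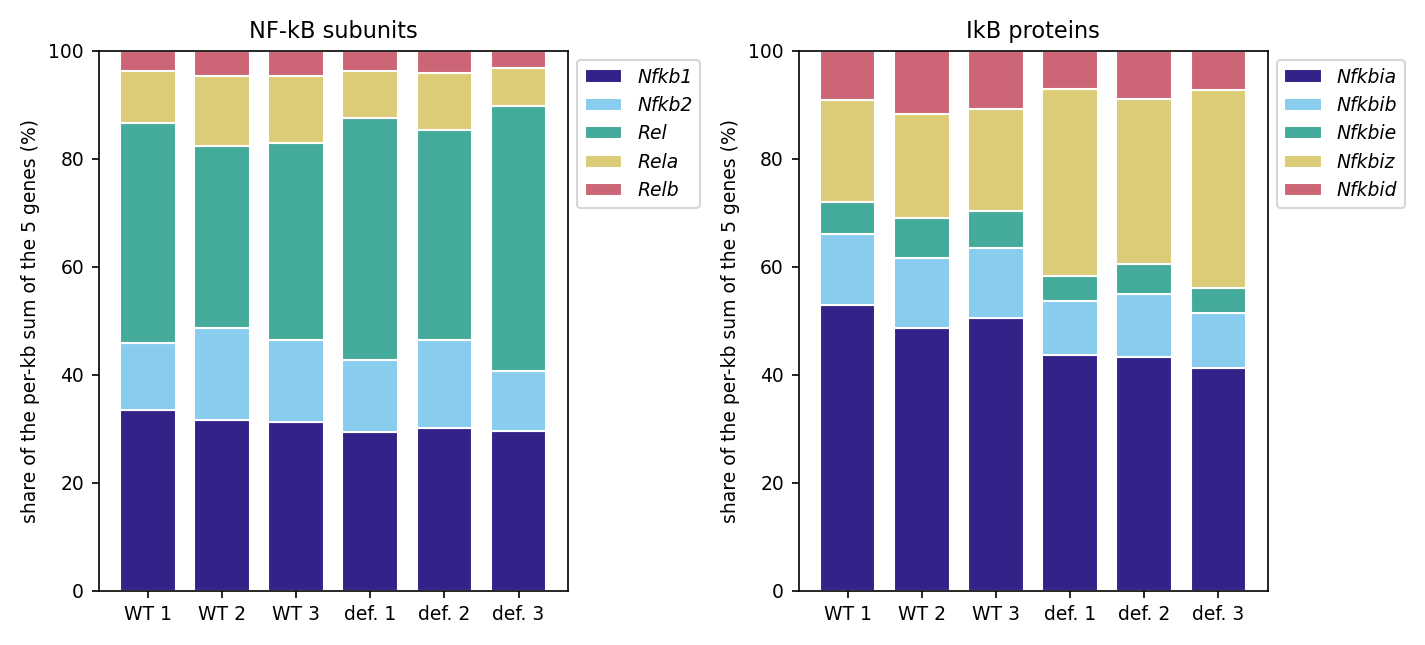
Share (%) of each gene in the summed per-kb level of the 5 NF-κB subunit genes (left) and of the 5 IκB genes (right), 1 bar per library (WT 1 to 3 and hnRNPL-deficient, def., 1 to 3). The *Nfkbiz* share is 18.8 to 19.2% in WT and 30.5 to 36.7% in deficient libraries, while *Rel* and *Nfkb1* together make up most of the subunit pool in every library. Lengths are unions of all annotated exons, and that of *Nfkb1* far exceeds its longest transcript.

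The spread within the groups was shared between genes. *Nfkb2*, *Nfkbib*, *Nfkbid*, *Nfkbie*, *Rela* and *Relb* were all lowest in WT replicate 1 and deficient replicate 3 of their groups and highest in WT replicate 2 and deficient replicate 2, an order that 12.1% of all tested genes had. These 6 genes have transcripts of 55.4 to 59.4% GC, above the median of 48.7% over tested genes. *Gm26917*, the gene with the highest count in every library, had the same order. It took 2.15, 4.33 and 3.16% of normalized counts in WT and 4.29, 6.52 and 2.72% in deficient libraries. WT replicate 1 and deficient replicate 3 also had the fewest reads on genes of their groups (53644421 and 40395186). The part of either in the shared order was not tested. Taken over 17589 genes (not replicates of each other), the difference between deficient replicates 2 and 3 had a Spearman correlation of 0.421 with GC content, that between WT replicates 2 and 1 of 0.216, and the log2 fold change of -0.14. After a correction of each library for GC content and exonic length, an alternative chosen after seeing the data, the differences of the called genes and of *Rela* moved little. *Nfkbie* was at -0.69 (adjusted p = 0.00501), *Nfkbid* at -0.66 (adjusted p = 0.00663), *Rela* at -0.52 (adjusted p = 0.00765) and *Nfkbiz* at 0.62 (adjusted p = 0.00364). With that correction *Relb* (-0.34, adjusted p = 0.0339) and *Nfkb1* (-0.28, adjusted p = 0.0541) also passed the adjusted p. The difference of *Rel* shrank from 0.16 to 0.06 (adjusted p = 0.713). With WT replicate 1 and deficient replicate 3 both left out, the differences of *Nfkbie*, *Nfkbid* and *Rela* were -0.68, -0.68 and -0.52, with adjusted p-values of 0.0188, 0.0236 and 0.0394.

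The position of 3 of the genes bears on the design. *Nfkbib*, *Nfkbid* and *Relb* (9.179 Mb away) lie on chromosome 7 with *Hnrnpl*, and for them the loss of hnRNPL and DNA carried along with the targeted allele cannot be told apart. Within 20 Mb of *Hnrnpl* 15.0% of 487 tested genes were called in either direction, against 11.2% of those elsewhere. Called lower were 5.54% near *Hnrnpl* and 4.03% elsewhere. *Nfkbie* (chr17:45555703-45563169), *Nfkbia* (chr12:55489410-55492647) and *Nfkbiz* (chr16:55811375-55838899) are on other chromosomes. The CA-rich motif ACACACA, a sequence to which hnRNPL is known to bind, occurred in the longest annotated transcript of *Nfkb1*, *Nfkb2*, *Nfkbie* and *Nfkbid* (1 match each) and *Rel* (3 matches), and 29.3% of tested genes had it. It did not occur in that of *Nfkbiz*, *Nfkbia*, *Nfkbib*, *Rela* or *Relb*. Introns were not searched.

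The machinery upstream of NF-κB was examined by lists of genes with known roles. Of 12 IκB kinases and upstream kinases none was called, where 7.28% of all tested genes were called higher and 4.08% lower. The list median log2 fold change was 0.02, beside -0.03 over all tested genes. *Chuk*, which encodes the kinase IKKα, passed at a small difference, from 3588 ± 187 to 2793 ± 83.3 normalized counts (-0.36, adjusted p = 0.0408). *Map3k8*, encoding the kinase TPL2 that is bound by p105, passed upward, from 2369 ± 74.9 to 2933 ± 60.6 (0.31, adjusted p = 0.0626). Both were named after their values were seen, and the adjusted p of *Map3k8* exceeded 0.1 when any 1 library was left out (up to 0.198, with differences of 0.29 to 0.33) and that of *Chuk* without WT replicate 2, deficient replicate 1 or deficient replicate 2 (up to 0.148, with -0.40 to -0.33 over all 6). The most abundant of the list by counts was *Tab2*, an adaptor of the kinase TAK1, at 15680 ± 2439 and 15919 ± 1769 (0.03, adjusted p = 0.918).

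Of 11 TRAF and IAP adaptors, which link receptors to the kinases, none was called, beside 7.28% higher and 4.08% lower over all tested genes. The list median was 0.01. *Birc3*, the most abundant, encodes the ubiquitin ligase cIAP2 and had 10998 ± 589 normalized counts in WT and 12766 ± 554 in deficient cells (0.22, adjusted p = 0.165). *Traf4*, named after its values were seen, passed at any fold (-0.45, adjusted p = 0.0809), but not without WT replicate 2, WT replicate 3, deficient replicate 1 or deficient replicate 3 (adjusted p up to 0.216, with -0.54 to -0.31 over all 6). Of 10 genes of IκB ubiquitination and turnover none passed at any fold, where 10.0% of all tested genes passed upward and 7.97% downward. The list median was -0.09. *Ube2d3*, a ubiquitin-conjugating enzyme and the most abundant of them, had 46397 ± 7354 and 41977 ± 4296 (-0.14, adjusted p = 0.556).

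Of 10 nuclear cofactors and modifiers of NF-κB, 1 was called, where 7.28% of all tested genes were called higher and 4.08% lower. In a list of 10, 1 call does not set the list apart from these shares. *Crebbp* encodes CBP, a histone acetyltransferase that acts as coactivator of RelA among many other factors. It had 31075 normalized counts, 29305 and 30368 in WT against 13293, 15727 and 16775 in deficient cells. Every deficient value was far below every WT value, and the log2 fold change of -0.99 (SE 0.109, adjusted p = 0.00148) was called in all 20 alternatives, at -1.06 to -0.90 with each library left out in turn. *Rps3*, a ribosomal protein also described as a partner of RelA and the most abundant of the list, had 39827 ± 2419 and 41408 ± 2807 (0.06, adjusted p = 0.76). *Nkrf*, a repressor of NF-κB named after its values were seen, passed at the edge of the threshold (-0.48, adjusted p = 0.0991) but not with any 1 library left out (adjusted p up to 0.243, with -0.58 to -0.31).

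**Figure D4:**
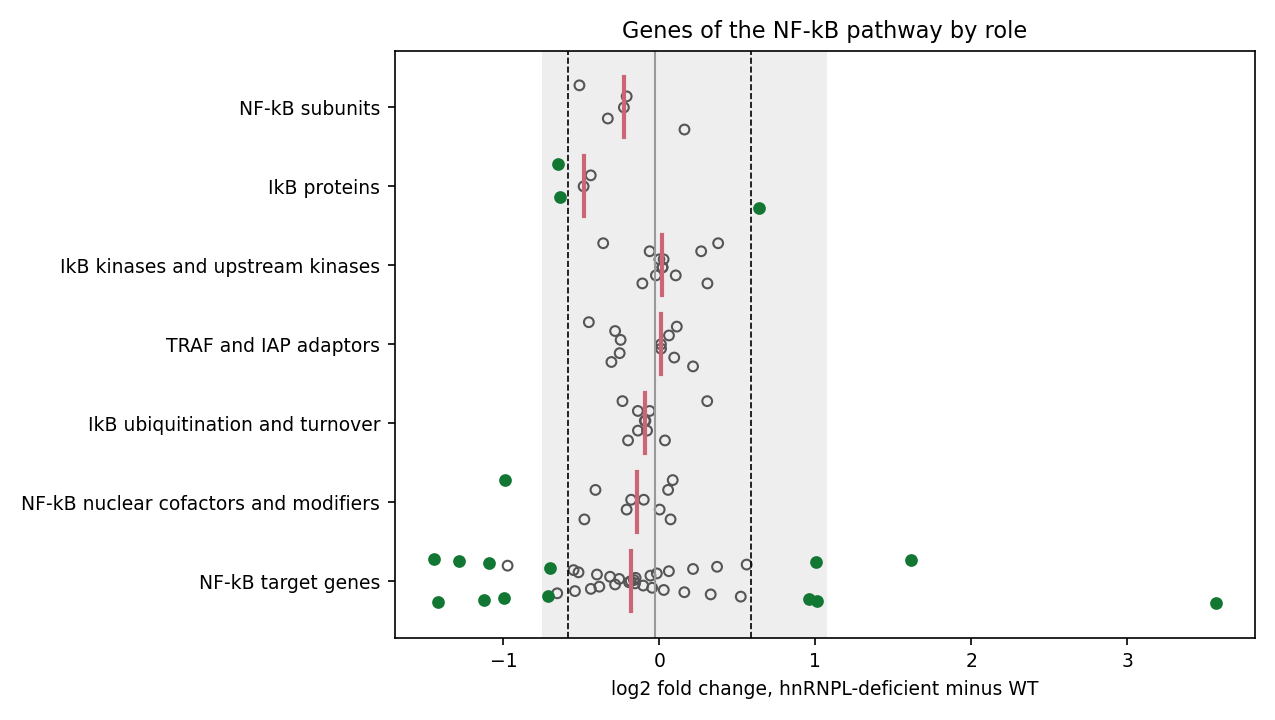
Log2 fold change, deficient minus WT (x axis), of the genes in each list by role; each circle is a gene, green filled circles are called, red lines are list medians, the grey line is the median of all tested genes (-0.03), the shaded band runs from their 5th to their 95th percentile (-0.75 to 1.07) and dashed lines mark 1.5-fold. The IκB genes have the lowest median (-0.49), and the called target genes lie on both sides.

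Of 42 genes listed as NF-κB targets 41 were tested (*Ccl4* was below the minimum), 5 were called higher and 8 lower, where 7.28% and 4.08% of all tested genes were called. Their median log2 fold change was -0.18. The called targets thus went in both directions, with the largest differences upward. *Cd80*, a costimulatory ligand of activated B cells, had 136, 112 and 98.7 normalized counts in WT and 1294, 1164 and 1689 in deficient libraries (log2 fold change 3.57, SE 0.194, adjusted p = 4.32e-05). *Il6*, a cytokine gene that depends on IκBζ in macrophages, had 614, 407 and 374 in WT and 1779, 932 and 1631 in deficient libraries (1.62, SE 0.273, adjusted p = 0.00855). In both genes the lowest deficient library was above the highest WT library.

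*Fas* (1.01, adjusted p = 0.00529), a death receptor gene, and *Ccr7* (0.96, adjusted p = 0.00123), a chemokine receptor gene, were also called higher, and both were named after their values were seen. They were called in all 20 alternatives.

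*Cxcl10*, a chemokine gene, fell most, from 1349.7, 882 and 760.1 normalized counts in WT to 362, 297 and 414 in deficient libraries (-1.45, SE 0.228, adjusted p = 0.00646). *Il10*, which encodes an anti-inflammatory cytokine, had 453, 252 and 242 in WT and 135, 147 and 94.6 in deficient libraries (-1.28, SE 0.29, adjusted p = 0.0262). For both genes WT replicate 1 was the highest library and no deficient library reached WT. *Ccl3*, a chemokine gene at low level, had 81.2, 39.8 and 45.9 in WT and 24.3, 23.2 and 12.3 in deficient libraries (-1.42, SE 0.4, adjusted p = 0.0549). Its call was lost without WT replicate 1, WT replicate 3 or deficient replicate 3 (adjusted p up to 0.138, with -1.62 to -1.12 over all 6).

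*Bcl2a1d*, of the A1 family of anti-apoptotic genes, had 10453, 8777 and 8466 normalized counts in WT and 4358, 3490.3 and 4934 in deficient libraries (-1.12, SE 0.144, adjusted p = 0.00289). *Bcl2a1a* and *Bcl2a1b*, named after their values were seen, were called lower too (*Bcl2a1a* not without WT replicate 1, at -0.54), but these near-identical copies may share reads and do not count as separate genes with certainty. *Ccnd2*, encoding cyclin D2 and the most abundant target by counts, had 190356, 152627 and 143519 in WT and 85346, 73939 and 67868 in deficient libraries (-1.09, SE 0.148, adjusted p = 0.00344). *Tnfaip3*, named after its values were seen, encodes A20, a feedback inhibitor upstream of the IκB kinases. It went from 13437 ± 534 to 9251 ± 847 normalized counts (-0.54, SE 0.0987, adjusted p = 0.0117), below 1.5-fold like *Nfkbia*.

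The genes whose pattern over the 6 libraries was most like that of *Nfkbie* were *Rabggtb*, *Apopt1*, *Ptgir*, *Comtd1* and *Dhx38*, with Pearson correlations of 0.9983 to 0.9985 on the log2 scale. They were taken from 17640 genes over 6 libraries whose differences were correlated with GC content, and the values describe likeness only.

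The libraries and their labels were checked once. *Hnrnpl* had 24174 to 25580 normalized counts in WT and 1297 to 2178 in deficient libraries, where it fell by 93.3%. Each library had between 40395186 and 75180749 reads on genes, and 24009 to 26283 genes were detected. B cell markers summed to 278000 to 356000 in WT and 272000 to 322000 in deficient libraries. Of these 7 markers 1 was called higher, *Cr2*, the gene of CD21 (0.85, adjusted p = 0.0444), a call lost without WT replicate 2, WT replicate 3 or deficient replicate 3 (adjusted p up to 0.145, with 0.65 to 1.05 over all 6). Summed T cell, NK cell and neutrophil markers did not exceed 38.4 in any library. Of 5 macrophage and monocyte markers the sum was 241 to 320 in WT and 1220 to 1380 in deficient libraries, nearly all of it *Adgre1*, which was called higher (2.24), while *Csf1r* did not exceed 6.85 and *Lyz2*, *Cd14* and *Fcgr1* did not exceed 2.02. Erythroid markers summed to 13.8 to 37.1 and 54.1 to 82.8, and dendritic cell markers to 8.12 to 9.51 and 21.6 to 27.4. In these 2 lists *Hbb-bt* (1.82) and *Xcr1* (1.35) were called higher, *Xcr1* not without WT replicate 2, WT replicate 3 or deficient replicate 2 (adjusted p up to 0.114, with 1.27 to 1.43 over all 6). Plasma cell markers summed to 14200 to 16500 and 13400 to 16500, with 1 of the 4 called lower (*Jchain*, -2.31), though not without WT replicate 1, WT replicate 2, deficient replicate 2 or deficient replicate 3 (adjusted p up to 0.15, with -3.00 to -1.90 over all 6). *Xist*, the X-inactivation RNA of female cells, was at 98510 normalized counts in WT replicate 3 and 98220 in deficient replicate 2 and at most 7.21 in the other 4 libraries. With its log2 level as a covariate the calls among the 10 genes did not differ (*Nfkbiz* 0.64, *Nfkbie* -0.66, *Nfkbid* -0.65). The part of these differences in the results for the NF-κB and IκB genes was not tested. In bulk RNA, fewer cells of a kind and less RNA per cell cannot be told apart, and this holds for every level above.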

How the data were processed

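Poly(A) RNA of GFP+ splenic B cells was sequenced from 3 WT and 3 hnRNPL-deficient replicates, grouped by the labels. As the labels and the study's methods state, the authors trimmed reads with fastp 0.23.1, aligned them with STAR 2.7.9a to mm10 and counted them per gene by strand with featureCounts and a GENCODE annotation. The deposited values are these counts divided by DESeq2 1.38.2 size factors (normalized counts, a signal with decimals). Steps of the values gave whole reads in every library (100% of values within 0.1 of a step), and reads on genes ranged from 40395186 to 75180749. The step of deficient replicate 2 was near 1 (1.00965), and its reads were left out of the count tests for that reason. Since 100% of its values too were within 0.1 of a step, leaving it out was a choice that the values did not require. The table also holds the authors' mean, log2 fold changes, standard errors, test statistic (a score), p-values, adjusted p-values and a plotting label, none of which was used. No value of another sample was present.

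The 17640 of 55421 genes whose mean reached 10 normalized counts were tested with limma 3.58.1 (R 4.3.3, trended empirical Bayes) on log2(normalized count + 1), with Benjamini-Hochberg adjustment over all of them. Fold changes are on that scale. A call needed an adjusted p under 0.1 and a 1.5-fold difference, the study's thresholds. Single genes also had an exact two-sided permutation test, whose smallest p is 0.1. The p-values measure the spread between these libraries, each of which the study treats as a biological replicate. edgeR 4.0.16 (quasi-likelihood) and DESeq2 1.42.0 were run on the whole reads of 5 libraries. Scripts were tested on simulated data. Positions and union exon lengths are from GENCODE vM21 on GRCm38, an earlier release than the authors used, and promoters from RefSeq (GRCm38.p6).

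The genes named are the 10 members, *Bcl3*, *Hnrnpl*, and in each list every called gene (the 6 with the largest difference where more than 6 were called) with the gene of the highest mean, and for *Nfkbie* the 5 genes with the most similar pattern. Others are marked as named after their values were seen. Of these, 1 pathway list and 1 target gene are not reported here. The members, lists and tests were chosen with earlier results of these data known. The alternatives were other pseudocounts, filters, scalings, variance settings and thresholds, an *Xist* covariate, the replicate number as a block, count tests and each library left out. The GC and length correction, leaving out WT replicate 1 with deficient replicate 3, counts at any fold and counts of called targets were added after the data were seen.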

Additional observations from a re-analysis of the deposited data

How the results depend on the processing

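All 10 genes kept the sign of their difference in every one of the 20 alternatives. *Nfkbiz* was called higher in all of them except where 2-fold was required. With an adjusted p under 0.05 and 2-fold, 0 of the 10 genes were called in either direction, 610 and 216 of all genes were called higher and lower, and 3 and 4 of the targets. Libraries scaled to equal totals left 1 of the 10 called lower and 1419 genes called higher and 602 lower overall. At any fold, the number of subunits past the adjusted p was 0 with a pseudocount of 0.5, with no filter on low values, with equal totals, with quantile normalization, with no mean-variance trend and at an adjusted p under 0.05, and 3 after the GC and length correction. Without WT replicate 1 and deficient replicate 3 together, 1231 genes were called higher and 708 lower. With each library left out in turn, 0 to 4 of the 10 were called lower, 0 to 2 subunits and 2 to 5 IκB genes passed at any fold, and 830 to 1111 genes were called higher and 478 to 696 lower over all genes, the fewest without WT replicate 3; fits with 2 libraries in a group have less power by construction. Quantile normalization brought *Nfkb1* to -0.07 and *Nfkbia* to -0.32.

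With the replicate number as a block, 3 subunits passed at any fold (*Rela*, adjusted p = 0.0195, *Relb*, 0.0659, and *Nfkb1*, 0.0874), 1755 genes were called higher and 1018 lower, and the calls among the 10 were the same 3 genes. The labels do not say that equal numbers mark a shared litter or day. Deviations from the group means correlated at 0.583, 0.315 and -0.03 for replicates 1, 2 and 3 over 12392 genes. Of the 3 WT libraries, 2 correlated best with the deficient library of their own number. The labels give no pairing and the main fit used none. Whether the numbers pair the samples was not settled. The least abundant of the 10, *Relb*, still had 1079 normalized counts in its lowest library, and with 3 libraries per group an adjusted p above 0.1 does not show that a gene was equal in both.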
